A study of Caenorhabditis elegans with 9 samples.

Results

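The lysozyme and saposin-like protein genes of the nematode Caenorhabditis elegans were followed in the intestine of worms grown with a low, a middle or a high supply of heme. They were taken as every gene of the deposited table whose name starts with lys-, ilys- or spp- followed by a digit, which gives 36 of 21776 genes: 9 lys, 5 ilys and 22 spp genes. Intestines came from adult wild-type (N2) worms that had been grown from synchronised larvae for 4 days at 20 °C in liquid mCeHR2 medium containing 2, 20 or 400 µM heme. All groups share strain, medium and temperature, and differ in the heme dose only, as far as the labels say. Each library was made by SMART-seq, a method that amplifies full-length cDNA from little RNA, from the pooled intestines of 3 worms. There are 3 libraries per dose and 9 in all. The labels do not say whether the 3 libraries per dose are separate cultures, and p-values measure only the spread between libraries, which may be technical.

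Lysozymes cut peptidoglycan, the wall polymer of bacteria. The worm has protist-type enzymes, encoded by lys genes, and invertebrate-type enzymes, encoded by ilys genes. Saposin-like proteins, encoded by spp genes and in part called caenopores, are mostly small proteins stabilised by disulfide bonds that bind lipids, and some of them open pores in bacterial membranes. Many members of these families are made in the intestine, the organ in which the worm digests bacteria and meets ingested pathogens. The mCeHR2 medium is axenic, so that the worms are fed without live bacteria. C. elegans cannot make heme and takes it up from its food through the intestine.

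The libraries held between 44385011 and 72960600 counts. Levels are given in CPM, the counts of a gene relative to the library size after scaling by the trimmed mean of M values (TMM), and a floor of 3 counts corresponds to 0.0369 to 0.0940 CPM. The TMM factors were 0.599, 1.19 and 0.719 in 20 µM replicates 1 to 3 and lay between 0.971 and 1.25 in the libraries of the other doses. Ribosomal RNA took 2.30 to 42.0% of the counts of a library and was highest in 20 µM replicates 2 and 3. At 2 µM heme, replicates 2 and 3 were nearly the same: 20 of the 23 members with a mean of at least 10 CPM lay within 1.2-fold of each other in that pair, against 1 to 8 in the other pairs within a dose. Their chi-square per degree of freedom was 11.7, against 397 to 5228 in those other pairs. Amplified reads are not independent molecules, so that this value cannot show whether they are separate samples, which was not tested. They were kept apart as the labels list them, and results with their counts summed are given under the processing alternatives. The intestinal markers vha-6, a subunit of the vacuolar proton pump, and ges-1, a gut esterase, were present in every library, from 1119.6 to 2928 CPM of vha-6 and from 44.3 to 173 CPM of ges-1. The yolk protein gene vit-2, also intestinal, stood at 14332, 84281 and 89942 CPM at 2 µM, 164809, 457 and 220596 CPM at 20 µM and 34005, 120284 and 88644 CPM at 400 µM, so that 20 µM replicate 2 stood far below all other libraries in this transcript. In bulk tissue, fewer cells of a type and less RNA per cell cannot be told apart.

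By the WBcel235 annotation, 12 members lie on chromosome IV, 11 on X, 7 on V, 3 on I, 2 on II and 1 on III. In all, 19 of the 36 members sit in 7 groups in which the next member is less than 5000 bases away. The largest holds spp-3, spp-2, spp-6, spp-4 and spp-5 within 5386 bases of chromosome X (7314969 to 7320354), and of these spp-6 alone is on the plus strand. The genes lys-4, lys-5 and lys-6 lie on the minus strand of chromosome IV (11621429 to 11627947). On chromosome V (10277904 to 10283544) lys-1 is on the plus strand, while lys-2 and lys-3 are on the minus strand. Smaller groups are spp-10 with spp-8 (IV, 8477180 to 8483621), ilys-3 with ilys-2 (IV, 2464456 to 2468879), spp-17 with spp-23 (I, 1016405 to 1019157) and spp-9 with spp-21 (X, 11487784 to 11490494). Coding sequences give 214 to 301 amino acids for lys genes, 138 to 159 for ilys genes and 90 to 429 for spp genes, with a median of 105 for the spp genes. The prosaposin-like gene spp-10 (429 amino acids), spp-8 (402), spp-11 (384) and spp-7 (322) are the long spp members. The current nomenclature gives spp names to 6 more genes that the table lists under sequence names, and these were not taken. How reads that match several genes were counted is not stated, and neighbours in these groups can be alike in sequence, so that their counts may not be fully separated.

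A handful of genes dominated the set. The 36 genes took 3.89, 2.50 and 2.44% of all counts in the 2 µM libraries (replicates 1 to 3), 5.51, 2.32 and 1.54% in the 20 µM libraries and 3.82, 3.66 and 3.46% in the 400 µM libraries. Averaged over the 9 libraries, 8 members exceeded 1000 CPM, 10 lay between 100 and 1000 CPM, 5 between 10 and 100 CPM, 7 between 1 and 10 CPM and 6 under 1 CPM. The 3 most abundant members of a library together held between 54.7 and 82.3% of the counts of the set. These were drawn from ilys-5, lys-4, spp-2, lys-2, lys-1 and spp-14, and lys-4 was among the 3 in every library. Per kilobase of spliced transcript, the normalised levels averaged over the 9 libraries were 19395 for ilys-5, 11989 for spp-2, 9039 for lys-4 and 3595 for spp-14. With the transcript lengths implied by the authors' deposited FPKM values, ilys-5 stood at 8491 and came after spp-2 (17556) and lys-4 (10368), so that the order of these 3 depends on the length used.

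**Figure D1:**
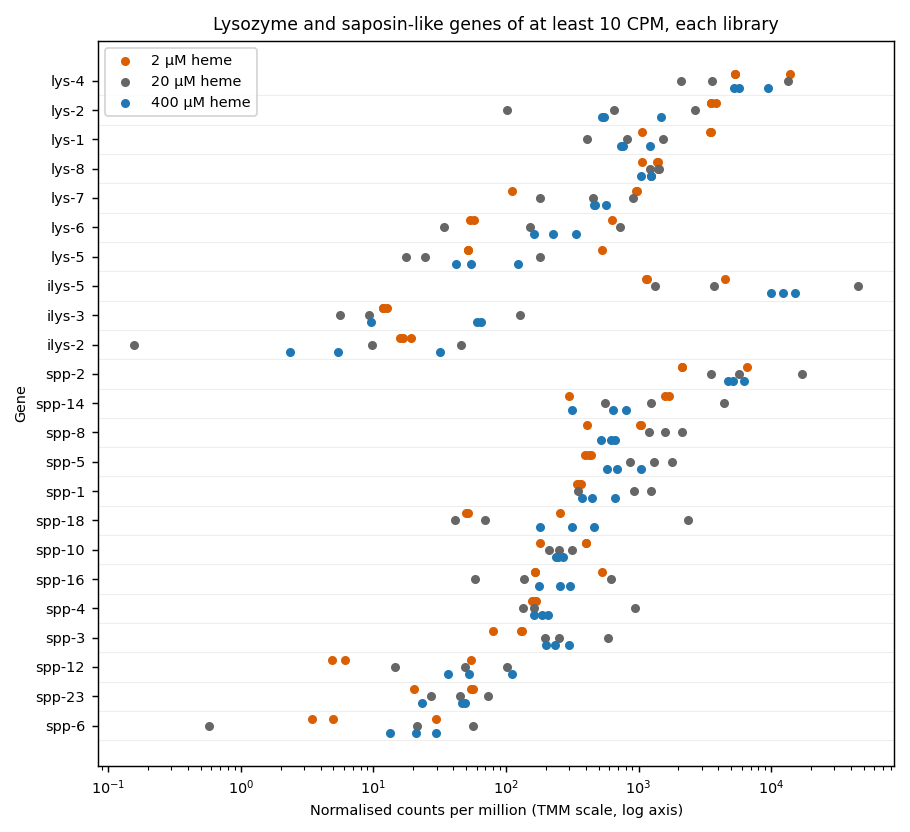
Normalised CPM (log axis) of the 23 lysozyme and saposin-like genes with a mean of at least 10 CPM. Each point is 1 library and colours give the heme dose; genes are grouped by family and sorted by mean level. The points of lys-8 sit close together, whereas those of ilys-5, lys-2 and spp-18 spread widely, above all at 20 µM.

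Among the protist-type lysozymes, lys-4 was the most abundant. Its level was 13811, 5378 and 5333 CPM in replicates 1 to 3 at 2 µM, 13322, 3589 and 2089 CPM at 20 µM and 5757, 9537 and 5289.6 CPM at 400 µM, with overlap between all doses. The neighbouring lys-6 had 631, 57.7 and 53.9 CPM at 2 µM, 722, 152 and 33.9 CPM at 20 µM and 163, 340.1 and 227 CPM at 400 µM. The third gene of this group, lys-5, had 534, 51.9 and 51.8 CPM in the 2 µM libraries, 181, 24.7 and 17.8 CPM in the 20 µM libraries and 42.1, 124 and 54.3 CPM in the 400 µM libraries. All 3 genes were higher in replicate 1 than in replicates 2 and 3 at both 2 and 20 µM, and the highest library at 2 µM was 2.59-fold above the lowest for lys-4, 10.3-fold for lys-5 and 11.7-fold for lys-6. In 2 µM replicate 1, the highest library of that dose for these 3 genes, hypodermis markers (4 of 4 measured) summed to 974 CPM, against 33.0 and 34.1 CPM in replicates 3 and 2, and body wall muscle markers (5 of 5 measured) summed to 701 CPM, against 36.2 and 42.2 CPM in replicates 2 and 3. In 20 µM replicate 1, again the highest of its dose for all 3, the hypodermis sum was 168 CPM and the muscle sum 195 CPM, against 28.3 and 50.5 CPM and 82.6 and 121 CPM in replicates 2 and 3. Nearly all of that hypodermis sum was col-19 (167 CPM), while rol-6 and bli-1 were highest in replicate 2. Of the muscle markers, unc-15 and lev-11 were highest in replicate 1 at 20 µM, and myo-3, unc-54 and unc-27 in replicate 3. The order was different at 400 µM, where replicate 1 had the highest hypodermis and muscle sums (596 and 493 CPM, against 238 and 169 CPM in replicate 2 and 126 and 107 CPM in replicate 3), but the lowest lys-5 and lys-6 levels of that dose. The part of these tissues in the levels of lys-5 and lys-6 was not tested.

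The means of lys-2 and lys-1 were highest at 2 µM heme. For lys-2 the libraries stood at 3869, 3513 and 3548 CPM at 2 µM, 2655, 649 and 101 CPM at 20 µM and 1469, 549 and 528 CPM at 400 µM. Every library at 2 µM lay above every library of the other doses, and the mean was 3643 ± 196 CPM at 2 µM against 1135 ± 1344 CPM at 20 µM and 848 ± 537 CPM at 400 µM (mean ± SD, n = 3 libraries each). Next to it, lys-1, a lysozyme induced in infection with Serratia marcescens, had 1066, 3487 and 3506 CPM at 2 µM, 1537, 816 and 411 CPM at 20 µM and 1220.5, 767 and 743 CPM at 400 µM. Replicate 1 at 2 µM lay within the range of the other doses for lys-1, while replicates 2 and 3 lay above all of them. The third gene of the group, lys-3, did not exceed 0.714 CPM in any library. The intestinal gene act-5, an actin of the microvilli, was higher in 2 µM replicates 2 and 3 than in all but 1 other library. Its level was 1742, 2943 and 3069.6 CPM at 2 µM, 3277, 923 and 399 CPM at 20 µM and 1638, 999 and 959 CPM at 400 µM. The other intestinal markers did not all share this order. In 2 µM replicates 2 and 3 vha-6 had its highest levels, 2794 and 2928 CPM. There asp-1 had 12765 and 13273 CPM, against 19001 to 27673 CPM at 400 µM. The level of mtl-2 was 777 and 787 CPM there, against 3333 CPM in 2 µM replicate 1.

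The other lys genes over 100 CPM were lys-7 and lys-8. The gene lys-7, a target of the insulin-regulated factor DAF-16 with a part in defence against bacteria, had 110.4, 972 and 961 CPM at 2 µM, 455, 908 and 179 CPM at 20 µM and 468, 464 and 571 CPM at 400 µM. It was lowest in 2 µM replicate 1 and 20 µM replicate 3, and all doses overlapped. For lys-8, a lysozyme induced through the TGF-beta ligand DBL-1, the values were 1059, 1413 and 1368 CPM at 2 µM, 1212, 1394 and 1435 CPM at 20 µM and 1241, 1045 and 1242 CPM at 400 µM. The lys-8 gene lies at 5586178 to 5587651 on chromosome II (plus strand, 3 exons).

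The near-constant level of lys-8 was singled out after its values were seen. Its highest library was 1.37-fold above its lowest, and of 4295 genes with a mean of at least 10 CPM and counts in every library 3 had a smaller ratio (0.0698%). The median ratio was 5.06 over those genes and 8.81 over the 23 members among them. With size factors of DESeq2 in place of TMM, the ratio of lys-8 was 1.49-fold and 14 genes were below it. On plain totals, with no scaling for composition, the ratio was 2.28-fold and 187 genes were below it, so that the rank depends on the scaling. Next among the members came spp-10, the prosaposin-like gene, with 2.22-fold, and it had 181, 401 and 403 CPM at 2 µM, 314, 213 and 253 CPM at 20 µM and 238, 247 and 269 CPM at 400 µM. At the other end stood ilys-2 (291-fold), spp-6 (97.3-fold), spp-18 (57.3-fold), ilys-5 (40.1-fold) and lys-2 (38.2-fold).

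**Figure D2:**
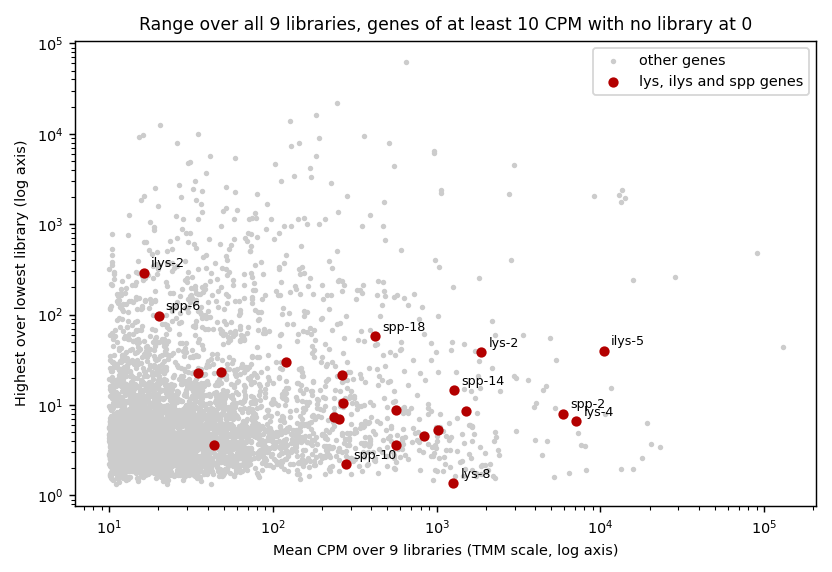
Highest over lowest library (log axis) against mean CPM (log axis) for 4295 genes with a mean of at least 10 CPM and no library at 0, with lysozyme and saposin-like genes in red. The point of lys-8, at 1.37-fold, lies at the lower edge, and ilys-2 stands highest among the red points at 291-fold.

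Of the invertebrate-type lysozymes, ilys-5 had by far the highest level, and its libraries spanned a wide range. It lies at 6533490 to 6536840 on the minus strand of chromosome X. Its level was 4457, 1151 and 1133 CPM at 2 µM, 45401, 3708 and 1333 CPM at 20 µM and 12237, 15138 and 10049 CPM at 400 µM. The 20 µM libraries ranged from the highest of all 9 to close to the 2 lowest, while every library at 2 µM lay below every library at 400 µM. As a share of the counts of the 36 genes, a measure that needs no scaling between libraries, ilys-5 held 12.7, 5.12 and 5.01% in the 2 µM libraries, 49.3, 18.9 and 6.22% in the 20 µM libraries and 39.96, 40.2 and 34.9% in the 400 µM libraries. The share of lys-2 was highest at 2 µM, with 11.1, 15.6 and 15.7% there, 2.88, 3.31 and 0.472% in the 20 µM libraries and 4.80, 1.46 and 1.83% in the 400 µM libraries. Shares within a set depend on one another, and a large ilys-5 share lowers all others.

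**Figure D3:**
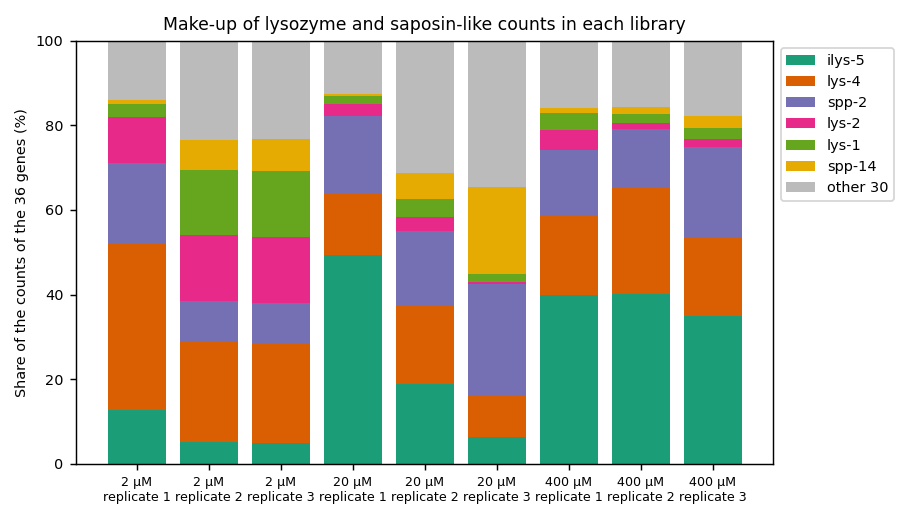
Share (%) of the summed counts of the 36 genes held by the 6 most abundant genes and by the other 30 in each of the 9 libraries, doses from left to right. The ilys-5 segment runs from 5.01 to 12.7% at 2 µM, from 6.22 to 49.3% with 20 µM and from 34.9 to 40.2% with 400 µM.

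The other ilys genes were far less abundant. The gene ilys-3, which is needed to digest bacterial walls and to resist some Gram-positive bacteria, had 11.8, 11.7 and 12.6 CPM at 2 µM, 9.32, 5.64 and 127 CPM at 20 µM and 9.59, 60.5 and 64.9 CPM at 400 µM. Its neighbour ilys-2 had 16.6, 19.2 and 15.8 CPM in the 2 µM libraries, 45.6, 9.80 and 0.157 CPM in the 20 µM libraries and 2.34, 31.96 and 5.43 CPM in the 400 µM libraries. The 2 neighbours were far apart in 20 µM replicate 3, where ilys-3 had its highest and ilys-2 its lowest level. For ilys-4 the values were 1.59, 1.32 and 1.53 CPM at 2 µM, 8.99, 7.99 and 22.2 CPM at 20 µM and 1.96, 2.89 and 8.09 CPM at 400 µM. All libraries at 2 µM lay below all others. The 3 coelomocyte markers measured were unc-122, cup-4 and lgc-26, genes of the scavenger cells of the body cavity. They summed to 3.71, 0.521 and 0.607 CPM at 2 µM, 11.5, 0.113 and 0 CPM at 20 µM and 0.635, 17.6 and 1.31 CPM at 400 µM. The part of these cells in the levels of ilys-4 was not tested. Counts of ilys-6 were found in 3 libraries and did not exceed 0.451 CPM.

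Among the saposin-like genes, spp-2 was the most abundant. It had 6557, 2118 and 2128 CPM at 2 µM, 16992, 3502 and 5696 CPM at 20 µM and 4719, 5126 and 6250.0 CPM at 400 µM, with overlap between doses. Per kilobase of spliced transcript, its group on chromosome X spanned a wide range of normalised levels over the 9 libraries, with 11989 for spp-2, 2268 for spp-5, 686 for spp-3, 604 for spp-4 and 62.04 for spp-6. With the implied lengths, spp-4 (761) came before spp-3 (728). The gene spp-5 encodes caenopore-5, a pore-forming protein that kills Escherichia coli. It had 439, 397 and 422 CPM at 2 µM, 1319, 855 and 1799 CPM at 20 µM and 578, 1053 and 689 CPM at 400 µM. The neighbouring spp-3 had 80.5, 130.2 and 133 CPM at 2 µM, 251, 198 and 591 CPM at 20 µM and 199, 299.7 and 233 CPM at 400 µM. For both genes all 2 µM libraries lay below all libraries of the other doses. On chromosome III, spp-1, which encodes another antibacterial caenopore, had 356, 344 and 371 CPM at 2 µM, 928, 348 and 1237 CPM at 20 µM and 375, 662 and 447 CPM at 400 µM. For spp-1 the 2 µM libraries lay below those at 400 µM and overlapped with 20 µM replicate 2. In the same group on X, spp-4 had 156, 167 and 159 CPM in the 2 µM libraries, 936, 133 and 163 CPM in the 20 µM libraries and 187, 208 and 163 CPM in the 400 µM libraries. Its level stood apart in 20 µM replicate 1 only. The plus-strand gene spp-6 had 29.5, 4.92 and 3.47 CPM in the 2 µM libraries, 21.4, 0.580 and 56.4 CPM in the 20 µM libraries and 13.4, 29.8 and 20.8 CPM in the 400 µM libraries, with the doses overlapping.

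**Figure D4:**
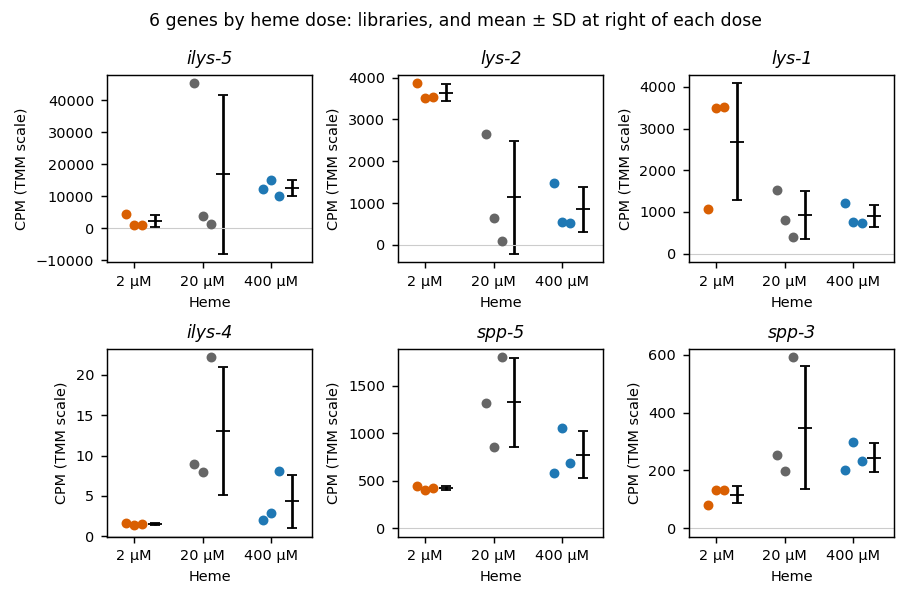
Normalised CPM by heme dose for ilys-5, lys-2, lys-1, ilys-4, spp-5 and spp-3. Points are libraries (replicates 1 to 3 from left to right), and the bar beside them gives the mean ± SD (n = 3). The 2 µM libraries lie above all others for lys-2 and below all others for ilys-4, spp-5 and spp-3; bars that reach below 0 reflect 1 high library at 20 µM.

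Among the other spp genes with at least 10 CPM, spp-14 was the most abundant and had 299, 1579.6 and 1702 CPM at 2 µM, 563, 1232 and 4378 CPM at 20 µM and 318, 647 and 801 CPM at 400 µM. Its lowest library was replicate 1 at every dose, and the doses overlapped. In contrast spp-18, with 256, 51.4 and 50.1 CPM at 2 µM, 2351, 41.01 and 69.2 CPM at 20 µM and 465, 317 and 179.9 CPM at 400 µM, was highest in replicate 1 of every dose. The same held for spp-16, with 526, 166 and 166 CPM in the 2 µM libraries, 622, 137 and 58.4 CPM in the 20 µM libraries and 304, 256 and 179 CPM in the 400 µM libraries. The libraries of spp-8, which lies beside spp-10, were 405, 1025 and 1049 CPM at 2 µM, 2129, 1578 and 1205 CPM at 20 µM and 523, 669 and 620.1 CPM at 400 µM. All of the 20 µM libraries of spp-8 were above those of both other doses on the TMM scale. On plain totals, with no scaling for composition, 20 µM replicate 3 lay below 2 µM replicates 2 and 3 for this gene. Levels of spp-12, reported elsewhere from pharyngeal neurons, were 54.1, 6.15 and 4.86 CPM in the 2 µM libraries, 14.6, 49.3 and 102 CPM in the 20 µM libraries and 52.7, 36.4 and 112 CPM in the 400 µM libraries. Those of spp-23 were 20.4, 56.5 and 54.7 CPM in the 2 µM libraries, 44.8, 27.1 and 73.1 CPM in the 20 µM libraries and 23.1, 48.8 and 46.3 CPM in the 400 µM libraries. For these 2 genes all doses overlapped.

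The 13 members under 10 CPM were in part the signal of single libraries. All 845 counts of spp-7 lay in 20 µM replicate 2, and so did 80.9% of the counts of spp-9. In that library the 11 pharynx markers measured summed to 623 CPM, against 1.65 to 360 CPM in the other libraries, and the part of the pharynx in these counts was not tested. In 2 µM replicate 1 lay 89.1% of the counts of spp-13 and 82.9% of those of spp-11. Counts of spp-17 were 17, 0 and 0 in the 2 µM libraries, 179, 209 and 60 in the 20 µM libraries and 85, 420 and 175 in the 400 µM libraries. The 2 µM libraries lay below all others, and 2 of them had no count. The gene spp-15 had 868, 4 and 28 counts in the 2 µM libraries, 0, 0 and 49 in the 20 µM libraries and 761, 171 and 228 in the 400 µM libraries. The remaining members, lys-3, lys-10, ilys-6, spp-19, spp-21 and spp-22, had at most 5.27 CPM in any library.

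Differences between doses were tested with edgeR's quasi-likelihood test on all 13434 genes that passed a filter on low counts, with Benjamini-Hochberg adjustment over all of them and a call at an adjusted p under 0.05. Of the 36 members 32 passed the filter, and spp-7, spp-11, lys-10 and spp-19 did not. A low gene passes through the libraries in which it is high, so that the counts below describe the genes tested and not the whole set.

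For 2 against 20 µM heme no lysozyme or saposin-like gene passed the test. The invertebrate-type lysozyme gene ilys-4 and the caenopore genes spp-3 and spp-5 were lower in all 3 libraries at 2 µM than in any library at 20 µM, and lys-2 was higher in all 3. edgeR called 0 of 32 members, with 0.0744% of all tested genes called. At an unadjusted p under 0.05 there were 8 members (25%), against 13.4% of all tested genes, of which 7 were lower (21.9%, against 5.34% of all tested genes) and 1, lys-1, was higher (3.12%, against 8.09% of all tested genes). DESeq2 called 4 members (12.5%), all lower at 2 µM (ilys-4, spp-3, spp-5 and spp-17), against 6.97% of all tested genes in either direction and 2.62% in the lower direction. These calls and the SDs at 2 µM take the nearly identical replicates 2 and 3 of that dose as separate libraries. For lys-5, spp-9, spp-13 and spp-15 DESeq2 gave no adjusted p in any comparison or on the slope, nor for ilys-6 for 2 against 400 µM. They count as not called, as such genes do in the shares of all tested genes. Markers of other tissues also separated these doses without overlap: the 11 pharynx markers summed to 1.65, 11.1 and 10.96 CPM at 2 µM, against 359.8, 623 and 82.1 CPM at 20 µM, and the 9 sperm markers to 473, 408 and 404 CPM at 2 µM, against 51.99, 25.5 and 97.3 CPM at 20 µM. Taken singly, myo-1, myo-2, tnt-4, phat-2 and phat-6 did not overlap, while the other pharynx markers did. The part of these tissues in the differences was not tested. The smallest p was that of ilys-4, with 1.48 ± 0.144 CPM at 2 µM and 13.1 ± 7.92 CPM at 20 µM (edgeR log2 fold change −3.14, SE 0.67, adjusted p = 0.116; DESeq2 adjusted p = 0.000185; range of the adjusted p over all alternatives 0.000185 to 0.380). The caenopore gene spp-5 followed, with 419.7 ± 21.1 CPM at 2 µM and 1324 ± 472 CPM at 20 µM (edgeR log2 fold change −1.66, SE 0.46, adjusted p = 0.190; DESeq2 adjusted p = 0.000799; range 0.000799 to 0.530). For spp-17 the means were 0.0698 and 3.27 CPM at 2 and 20 µM (edgeR log2 fold change −5.47, SE 1.68, adjusted p = 0.230; DESeq2 adjusted p = 0.00238; range 0.00238 to 0.496). All of its 2 µM counts came from replicate 1, and without it the fitted value (−10.56) depends on the prior count. For spp-9 they were 0.0287 and 4.32 CPM (edgeR log2 fold change −7.08, SE 2.20, adjusted p = 0.234), and without 20 µM replicate 2 its log2 fold change was −2.95. At 2 µM spp-9 had 7 counts in replicate 1 and 0 in the others.

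Over the 32 members the median log2 fold change for 2 against 20 µM heme was −0.58, beside 0.12 over all genes tested, with 11 members above and 21 below 0. By family the median was 0.39 for 8 lys genes, −2.90 for 5 ilys genes and −1.05 for 19 spp genes. The median of all members moved with single libraries. Leaving out 2 µM replicate 1 gave −1.40 (all genes −0.12), leaving out 20 µM replicate 1 gave −0.13 (all genes 0.40) and leaving out replicate 2 of that dose gave −1.03 (all genes 0.15). Leaving out 400 µM replicate 3, which is not part of this comparison, gave −0.36 (all genes 0.12). Each of these fits repeats the filter and the scaling, so that the genes tested can change. No overlap between the libraries of the 2 doses was seen for 7 members (21.9%), namely lys-2, higher at 2 µM, and ilys-4, spp-3, spp-5, spp-8, spp-9 and spp-17, lower at 2 µM, against 17.1% of all tested genes. The 6 lower members are 18.8%, against 4.46% of all tested genes that were lower at 2 µM without overlap. Leaving out 1 library moved this count to 15 of 33 members (4098 of 14080 genes) without 2 µM replicate 1, to 12 of 33 (5851 of 14369 genes) if 20 µM replicate 1 is left out, and to 11 of 34 (3475 of 14484 genes) for 20 µM replicate 3. Such a count can hardly fall, as fewer libraries leave fewer chances to overlap.

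For 400 against 20 µM heme no member passed either, and the long saposin-like gene spp-8 had the smallest p. All 3 libraries of spp-8 at 400 µM were below all 3 at 20 µM. edgeR called 0 of 32 members, against 0.551% of all tested genes, and 2 had an unadjusted p under 0.05 (6.25%, against 18.5% of all tested genes). DESeq2 called 1 member (3.12%), spp-8, against 12.3% of all tested genes. Beside this, sperm markers summed to 4421, 579 and 2543 CPM at 400 µM, against 51.99, 25.5 and 97.3 CPM at 20 µM. The 8 germline and oocyte markers summed to 1161, 2735 and 677 CPM at 400 µM, against 133, 30.4 and 140.3 CPM at 20 µM, and pharynx markers to 67.2, 10.6 and 8.32 CPM at 400 µM, against 359.8, 623 and 82.1 CPM at 20 µM. None of these 3 sums overlapped between the doses. Of the pharynx markers taken singly, tnt-4, phat-2 and phat-6 did not overlap, while the others did. The part of these tissues in the differences was not tested. The level of spp-8 was 604 ± 74.2 CPM at 400 µM and 1638 ± 465 CPM at 20 µM (edgeR log2 fold change −1.44, SE 0.51, adjusted p = 0.199; DESeq2 adjusted p = 0.0205; range of the adjusted p over all alternatives 0.0205 to 0.507). For ilys-4 the means were 4.31 ± 3.31 CPM at 400 µM and 13.1 ± 7.92 CPM at 20 µM (edgeR log2 fold change −1.60, SE 0.64, adjusted p = 0.232), and the log2 fold change was −0.97 without 20 µM replicate 3 and −2.43 without 400 µM replicate 3. For spp-14 they were 589 ± 247 CPM and 2058 ± 2037 CPM (edgeR log2 fold change −1.81, SE 0.91, adjusted p = 0.324), with a log2 fold change of −0.60 without 20 µM replicate 3. The fourth by p was spp-13, at 0.0495 and 0.799 CPM at 400 and 20 µM (edgeR log2 fold change −3.98, SE 2.02, adjusted p = 0.329), and without 20 µM replicate 2 its log2 fold change was −2.73.

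In this comparison 6 members lay above and 26 below 0, with a median log2 fold change of −0.30 beside −0.03 over all genes tested. By family it was −0.12 for lys, −0.48 for ilys and −0.51 for spp genes. With a block for the replicate number the median of all members lay above 0 and below that of all genes, as given under the processing alternatives. Single libraries moved the median of all members, to −0.61 if 400 µM replicate 2 was left out, −0.59 if it was 20 µM replicate 2 and −0.11 if it was 20 µM replicate 1 (all genes −0.07, 0.11 and 0.32). Libraries of 400 and 20 µM heme did not overlap for 3 members (9.38%), spp-15 higher and spp-8 and spp-13 lower at 400 µM, against 24.1% of all tested genes. Leaving out 1 library moved it to 12 of 33 members (6844 of 14369 genes) for 20 µM replicate 1, to 8 of 33 (4607 of 14206 genes) for replicate 2 of that dose and to 5 of 34 (4822 of 14484 genes) for its replicate 3. Without 20 µM replicate 1, ilys-5 and the group lys-4, lys-5 and lys-6 were among the members that did not overlap. For ilys-5 the highest library was 3.93-fold above the lowest at 2 µM, 34.1-fold at 20 µM and 1.51-fold at 400 µM.

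Between the lowest and the highest dose, lys-1 and lys-2 stood higher at 2 µM and ilys-5, ilys-4 and several spp genes lower, and none of them passed the test. edgeR called 0 of 32 members for 2 against 400 µM heme, against 0.104% of all tested genes. An unadjusted p under 0.05 was found for 5 members (15.6%, against 10.6% of all tested genes), and DESeq2 called 1 (3.12%, against 4.35% of all tested genes). Here too the gonad marker sums did not overlap, with sperm sums of 473, 408 and 404 CPM at 2 µM against 4421, 579 and 2543 CPM at 400 µM, and germline and oocyte sums of 94.9, 155 and 153 CPM at 2 µM against 1161, 2735 and 677 CPM at 400 µM. Among these markers msp-19 alone overlapped. The 4 neuron markers summed to 24.2, 36.3 and 36.2 CPM at 2 µM, against 15.6, 17.6 and 19.9 CPM at 400 µM, also without overlap. Taken singly, only snb-1 did not overlap, with 10.5, 7.77 and 7.44 CPM at 2 µM against 4.65, 4.73 and 5.42 CPM at 400 µM. The neuron markers unc-64, rab-3 and unc-119 overlapped between these doses. The part of the gonad and of neurons was not tested. The called gene was spp-17, with 0.0698 CPM at 2 µM and 3.65 CPM at 400 µM (edgeR log2 fold change −5.63, SE 1.69, adjusted p = 0.323; DESeq2 adjusted p = 0.00244; range of the adjusted p over all alternatives 0.00244 to 0.757). Its log2 fold change was −4.53 without 400 µM replicate 2 and −10.75 without 2 µM replicate 1, where all 2 µM counts are 0 and the fitted value depends on the prior count. Next was spp-13, with 5.42 ± 9.13 CPM at 2 µM and 0.0495 CPM at 400 µM (edgeR log2 fold change 6.73, SE 2.27, adjusted p = 0.376), and without 2 µM replicate 1 its log2 fold change was 1.55. For ilys-4 the means were 1.48 ± 0.144 and 4.31 ± 3.31 CPM at 2 and 400 µM (edgeR log2 fold change −1.54, SE 0.64, adjusted p = 0.445), and the log2 fold change was −0.71 without 400 µM replicate 3. For lys-1 they were 2686 ± 1404 and 910.3 ± 269 CPM (edgeR log2 fold change 1.56, SE 0.67, adjusted p = 0.457).

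No overlap between 2 and 400 µM heme was seen for 9 members (28.1%), against 28.4% of all tested genes, so that the share in the set was that of the background. These were lys-2 and spp-13, higher at 2 µM, and ilys-4, ilys-5, spp-1, spp-3, spp-5, spp-9 and spp-17, lower at 2 µM. Of these, ilys-5 averaged 2247 ± 1914 CPM at 2 µM and 12475 ± 2553 CPM at 400 µM (edgeR log2 fold change −2.47, SE 1.26, adjusted p = 0.543), and lys-2 averaged 3643 ± 196 and 848 ± 537 CPM (edgeR log2 fold change 2.10, SE 1.01, adjusted p = 0.510). Without 2 µM replicate 1, 25 of 33 members did not overlap, as did 7283 of 14080 tested genes. The median log2 fold change over the members was −0.04, beside 0.02 over all genes tested, with 16 members on each side of 0. It was −0.93 without 2 µM replicate 1, beside −0.29 over all genes, and with the size factors of DESeq2 it was −0.15, beside −0.10 over all genes. By family it was 0.35 for lys, −1.90 for ilys and −0.47 for spp genes.

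**Figure D5:**
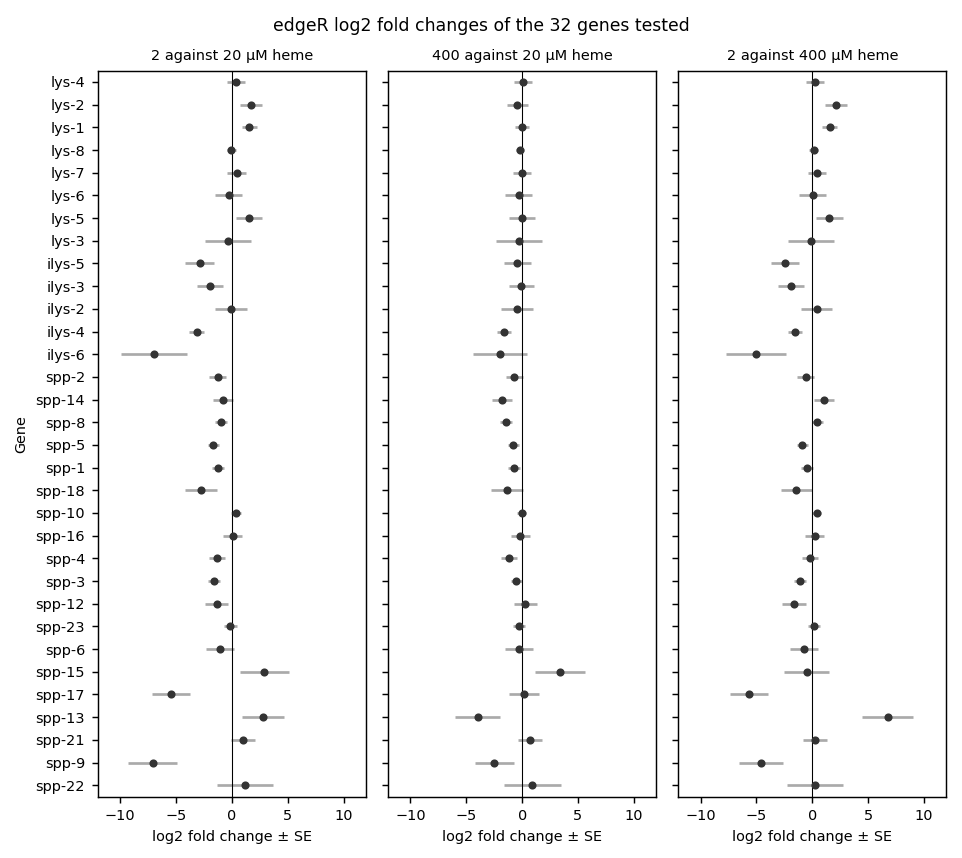
Log2 fold changes with their SE from edgeR for the 32 genes tested, for 2 against 20, 400 against 20 and 2 against 400 µM heme, sorted by family and mean level. For 2 against 20 µM heme 21 of 32 points lie below 0 and for 400 against 20 µM 26 of 32, and no gene passed the threshold in any of these comparisons.

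On a straight line over the logarithm of the 3 doses no member passed. edgeR called 0 of 32 members on a slope per 10-fold more heme, against 0.0744% of all tested genes, and DESeq2 called 0 (2.21% of all tested genes). Here DESeq2 gave no adjusted p for lys-5, ilys-3, ilys-5, ilys-6, spp-9, spp-13 and spp-15, which count as not called. An unadjusted p under 0.05 was found for lys-1 and spp-13 (6.25%, against 8.52% of all tested genes). The slope of lys-1 was −0.65 per 10-fold more heme on the log2 scale (SE 0.29, adjusted p = 0.579) and that of lys-2 was −0.89 (SE 0.41, adjusted p = 0.594), both in edgeR. For spp-13 the slope was −2.93 (edgeR, SE 0.90, adjusted p = 0.356) and −1.53 without 2 µM replicate 1. For spp-17 it was 2.04 (edgeR, SE 1.18, adjusted p = 0.737). The median slope was −0.0036 over the members and −0.03 over all genes tested.

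Known regulators of intestinal immunity and other antimicrobial genes were listed beside the set. Of 30 regulators, which include the p38 kinase cascade, the TGF-beta pathway and the intestinal GATA factors, 29 were tested, and edgeR called 0 in each of the 3 comparisons and on the slope. Of these 29, DESeq2 called 1 higher (daf-16) and 1 lower (dbl-1, the TGF-beta ligand) for 2 against 20 µM, against 6.97% of all tested genes. It called 3 lower (sma-6, tir-1 and pmk-1) for 400 against 20 µM, against 12.3% of all tested genes. For 2 against 400 µM it called 1 higher (daf-16), against 4.35%, and on the slope 0, against 2.21%. The regulators hlh-30 and skn-1 had no adjusted p in DESeq2 for 2 against 20 and 400 against 20 µM and count as not called. At an unadjusted p under 0.05 in edgeR, 1 was higher and 2 were lower for 2 against 20 µM (10.3%, against 13.4% of all tested genes). For 400 against 20 µM 7 were lower (24.1%, against 18.5% of all tested genes in either direction and 7.28% in the lower direction). For 2 against 400 µM 3 were higher and 1 lower (13.8%, against 10.6%), and on the slope 1 was lower (3.45%, against 8.52%). Their median log2 fold changes were −0.39, −0.74 and 0.41 in that order, beside 0.12, −0.03 and 0.02 over all genes. The gene daf-16, which encodes the FOXO factor of insulin signalling, had 43.4, 40.9 and 39.3 CPM at 2 µM, 12.05, 16.3 and 13.2 CPM at 20 µM and 14.3, 23.4 and 18.6 CPM at 400 µM. Its 2 µM libraries lay above all others (edgeR log2 fold change 1.57, SE 0.35, adjusted p = 0.119 for 2 against 20 µM; DESeq2 adjusted p = 4.8e-06). The p38 kinase gene pmk-1 had 4.88, 4.33 and 6.74 CPM at 400 µM and 7.85, 17.7 and 17.6 CPM at 20 µM (edgeR log2 fold change −1.44, SE 0.44, adjusted p = 0.159; DESeq2 adjusted p = 0.0303). The gene tir-1, which encodes the adaptor upstream of that kinase, had 3.28, 3.39 and 4.07 CPM at 400 µM and 17.4, 5.27 and 9.53 CPM at 20 µM (edgeR log2 fold change −1.58, SE 0.48, adjusted p = 0.154; DESeq2 adjusted p = 0.0279). For dbl-1 no count was found at 2 µM, against 0.306, 2.66 and 0 CPM at 20 µM (edgeR log2 fold change −8.93, SE 2.78, adjusted p = 0.266; DESeq2 adjusted p = 0.0124), a fitted value that depends on the prior count. The receptor gene sma-6 of the TGF-beta pathway had 7.75, 10.2 and 12.05 CPM at 400 µM and 17.4, 27.02 and 26.4 CPM at 20 µM (edgeR log2 fold change −1.24, SE 0.35, adjusted p = 0.140; DESeq2 adjusted p = 0.00359). Of 30 further antimicrobial peptide and protein genes (the abf, cnc and nlp families and the thaumatin-like thn genes), 20 were tested and edgeR and DESeq2 called 0 in each comparison. DESeq2 gave no adjusted p for some of them, and these count as not called. For 2 against 20 µM they were nlp-34, cnc-2, abf-6, cnc-3, nlp-31 and abf-5. In edgeR 1 of the 20 was higher and 1 lower at an unadjusted p under 0.05 both for 2 against 20 µM (10%, against 13.4% of all tested genes) and for 2 against 400 µM (10%, against 10.6%). For 400 against 20 µM and on the slope 1 was lower (5%, against 18.5 and 8.52%). Their median log2 fold changes in the order given above were 1.66, 0.62 and 0.78, and single libraries moved them. Without 2 µM replicate 1 the medians for 2 against 20 and 2 against 400 µM were −0.93 and −2.84, beside −0.12 and −0.29 over all genes. In that library nlp-33 stood at 185 CPM, against 5.40 and 5.18 CPM in the other 2 µM libraries (a gene chosen after its values were seen), and hypodermis markers at 974 CPM, against 34.1 and 33.0 CPM. The part of the hypodermis was not tested. A fit without 1 library repeats the filter and the scaling, so that a median can also move without a library of its own 2 doses being left out. Without 2 µM replicate 2, 21 of these antimicrobial genes were tested in place of 20. Over all left-out libraries the median for 400 against 20 µM lay between 0.28 (without 2 µM replicate 2; −0.03 over all genes) and 2.46 (without 20 µM replicate 1; 0.32 over all genes). That for 2 against 20 µM was 2.51 without 20 µM replicate 1 (0.40 over all genes), and that for 2 against 400 µM was 0.10 without 400 µM replicate 1. The thaumatin-like gene thn-2 had 105, 400.4 and 490.4 CPM at 400 µM and 1145, 632 and 853 CPM at 20 µM (edgeR log2 fold change −1.40, SE 0.59, adjusted p = 0.253).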

How the data were processed

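The authors deposited 1 table with raw counts per gene and FPKM values for each of the 9 libraries, per the file headers. Bowtie 0.12.2 and the genome build WBcel235 are named in the submitters' processing notes; the counting method, strand setting and treatment of reads matching several genes are not given in the sources used here. The deposited FPKM values served only to derive transcript lengths. Gene positions come from the WBcel235 annotation of Ensembl, matched by symbol.

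After TMM scaling the counts went into edgeR 4.0.16 (R 4.3.3), quasi-likelihood, 1 coefficient per dose over all 9 libraries, after filterByExpr; the slope on log10 heme came from a separate fit. SEs are the log2 fold change divided by the square root of F. Alternatives were DESeq2's size factors, its Wald test (DESeq2 1.42.0), no filter, the replicate number as a block, and each library left out; summing 2 µM replicates 2 and 3, removing 17 ribosomal RNA genes and the pathway list medians without each library were added after the data were seen. The fits were tested on simulated counts. Members and lists were chosen with earlier results of these data known. Members with a mean of at least 10 CPM are given per library, and the 4 members with the smallest p per comparison with fold changes. The floor of 3 counts covers counting error only.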

Additional observations from a re-analysis of the deposited data

How the results depend on the processing

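With size factors of DESeq2, no filter, 2 µM replicates 2 and 3 summed, or ribosomal RNA genes removed, edgeR called 0 members in each comparison and on the slope, as it did without any 1 library (0 in each of 9 fits). DESeq2 called 4 members for 2 against 20 µM heme (12.5%, against 6.97% of all tested genes). It called 1 for 400 against 20 µM (3.12%, against 12.3%) and 1 for 2 against 400 µM (3.12%, against 4.35%). The cause of the difference from edgeR was not tested. Single members were recomputed only for the 4 with the smallest p in each comparison and on the slope. Of these 240 values, 0 changed direction and 5 passed the threshold, all 5 in DESeq2. As these members were picked by p from the same data, their kept direction says nothing about the other members. With a block for the replicate number edgeR called 0 members in each comparison and on the slope, and the medians for 400 against 20 and 2 against 400 µM heme were 0.04 and −0.54 (all genes 0.21 and −0.05). In their deviations from the dose mean, same-numbered libraries correlated between 0.208 and 0.509 for numbers 1 and 3 and between −0.0176 and 0.0366 for number 2, and 6 of 9 libraries correlated best with their own number, a hint of shared numbers from the data that the labels do not give. As not every pair exceeded 0.1, the fit without the block stayed the main one. Leaving out 1 library gave 7 to 15 members without overlap for 2 against 20 µM heme, 3 to 12 for 400 against 20 µM and 9 to 25 for 2 against 400 µM. Fewer libraries leave fewer chances to overlap, so that such counts can hardly fall, and their range does not measure how steady they are. With all libraries the shares were 21.9, 9.38 and 28.1% of the members tested, against 17.1, 24.1 and 28.4% of all tested genes. At the highest of these counts more of all tested genes were without overlap too, as given with each comparison above. Members under 10 CPM rest on few counts in some libraries, 11 of the 36 having a count of 0 in at least 1.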
